A study of Mus musculus with 10 samples.

Results

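The angiopoietin and Tie receptor system was described here through 7 genes, chosen by name: the receptor genes Tek (its protein is TIE2) and Tie1, the phosphatase gene Ptprb (VE-PTP), the ligand genes Angpt1 and Angpt2, and the angiopoietin-like genes Angptl2 and Angptl4. All 7 were among the 24538 genes of the count files, and all 7 entered the test of 11823 genes. RNA was sequenced from live cells sorted from mouse lung as positive for CD31, an endothelial and platelet surface protein, and negative for CD45, a protein of white blood cells. There were 5 libraries of Normal lung and 5 of Lung metastases, all from wild type C57BL6/J mice with a labelled age of 8 to 10 weeks. The metastases had been seeded by E0771-LG mammary tumour cells given through the tail vein to females aged 6 to 8 weeks. Nodules below 1 mm across were dissected, and each metastasis sample pooled 2 to 4 mice. The labels give no such pooling number for the normal lungs, and do not say whether libraries of a group came from separate mice. The p-values therefore measure only the spread between these libraries, part of which may be technical.

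TIE2 is a receptor tyrosine kinase of endothelial cells. Angiopoietin-1, which is made mainly by mural cells and is also stored in platelets, activates it and helps keep vessels quiescent. Angiopoietin-2 is made by endothelial cells and acts on TIE2 as a context-dependent antagonist or weak agonist. TIE1 is a related receptor without a known angiopoietin of high affinity that pairs with TIE2, and VE-PTP removes phosphate from TIE2 and from VE-cadherin complexes. Angiopoietin-like proteins share the fold of the angiopoietins but do not bind TIE2. ANGPTL2 acts on integrin and immune receptors, and ANGPTL4 inhibits lipoprotein lipase.

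Gene counts summed to between 41.0 and 79.7 M per normal library and to between 21.7 and 54.3 M per metastasis library. Levels of a gene across libraries are given as CPM, its counts in each M of counts on library sizes scaled by edgeR's TMM method, and a positive log2 fold change means a higher level in metastases. Rose and fell are used of genes with an adjusted p under 0.05. Pecam1, which encodes CD31, fell from 2415 ± 864 to 644 ± 508 CPM (SD, n = 5), and Ptprc, which encodes CD45, rose from 17.8 ± 7.31 to 121 ± 25.6 CPM. Of 16 pan-endothelial marker genes, none of them one of the 7 genes, 13 fell and 0 rose, beside 8.22% and 12.0% of all genes tested. Their median level in the 5 metastasis libraries was 33.0%, 22.0%, 18.1%, 9.46% and 6.29% of the normal mean, so libraries 4 and 5 were the lowest. In such sorted bulk RNA, fewer endothelial cells and less RNA per endothelial cell cannot be told apart. The summed level of 12 fibroblast markers was 7.84 to 81.3 CPM in normal and 522 to 1038 CPM in metastasis libraries, with Tcf21 at 0 in all 10 libraries and Fbln1 at 0 in all but normal library 5. The 12 macrophage and monocyte markers summed to 47.3 to 211 and 935 to 1874 CPM, and the 10 proliferation markers to 26.0 to 129 and 1730 to 3214 CPM. The 9 platelet markers summed to 196 to 1135 and 794 to 13256 CPM. The 14 pericyte and smooth muscle markers summed to 242 to 292 and 57.4 to 229 CPM, with Cspg4 at 0 in every metastasis library. Most of these sums was Mcam, at 221 ± 28.1 and 92.0 ± 61.6 CPM (SD, n = 5). Other lists had 10 epithelial markers (9.23 to 755 and 23.5 to 170 CPM), 5 mesothelial markers (0.0478 to 2.25 and 0.298 to 27.4 CPM), 6 lymphatic endothelial markers (1076 to 1857 and 136 to 1774 CPM) and 14 venous, arterial and capillary endothelial markers (3240 to 5419 and 279 to 1373 CPM, of which 8 fell). Rn45s, the ribosomal RNA precursor, took 2.83% to 3.51% of gene counts in normal libraries 1 and 2 against 0.408% to 0.469% in the other 3, and 1.45% and 4.61% in metastasis libraries 1 and 2 against 0.647% to 1.24%. The labels name no batch. For the 7 genes and the named pathway genes, values within libraries 1 and 2 and within libraries 3 to 5 are given where they end a call. Pecam1 and Ptprc did not pass within libraries 1 and 2 (edgeR adjusted p = 0.102 and 0.125).

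Relative to the whole of the sequenced RNA, the endothelial receptors Tek and Tie1 and the phosphatase Ptprb fell in metastases, Angpt1, Angptl2 and Angptl4 rose, and Angpt2 did neither. Thus 6 of the 7 passed the test, as did 20.2% of all genes tested. Of the 7, 3 rose, where 12.0% of all genes tested rose, and 3 fell, where 8.22% of all genes tested fell. Angptl4, counted among those that rose, passed the filter on low counts with 1 normal and 4 metastasis libraries, so its call adds no support to these counts. The normal and metastasis ranges did not overlap for 4 of the 7, and for 14.7% of all genes tested. These were Tek, Tie1 and Ptprb on the lower side, a pattern of 6.17% of the genes tested, and Angptl2 on the higher side, a pattern of 8.50%. The median log2 fold change was -0.22 over the 7 genes and 0.06 over all genes tested. Without metastasis libraries 4 and 5, those of lowest endothelial level, 2 of the 7 rose and 3 fell, beside 9.08% and 4.21% of all genes in that fit.

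**Figure D1:**
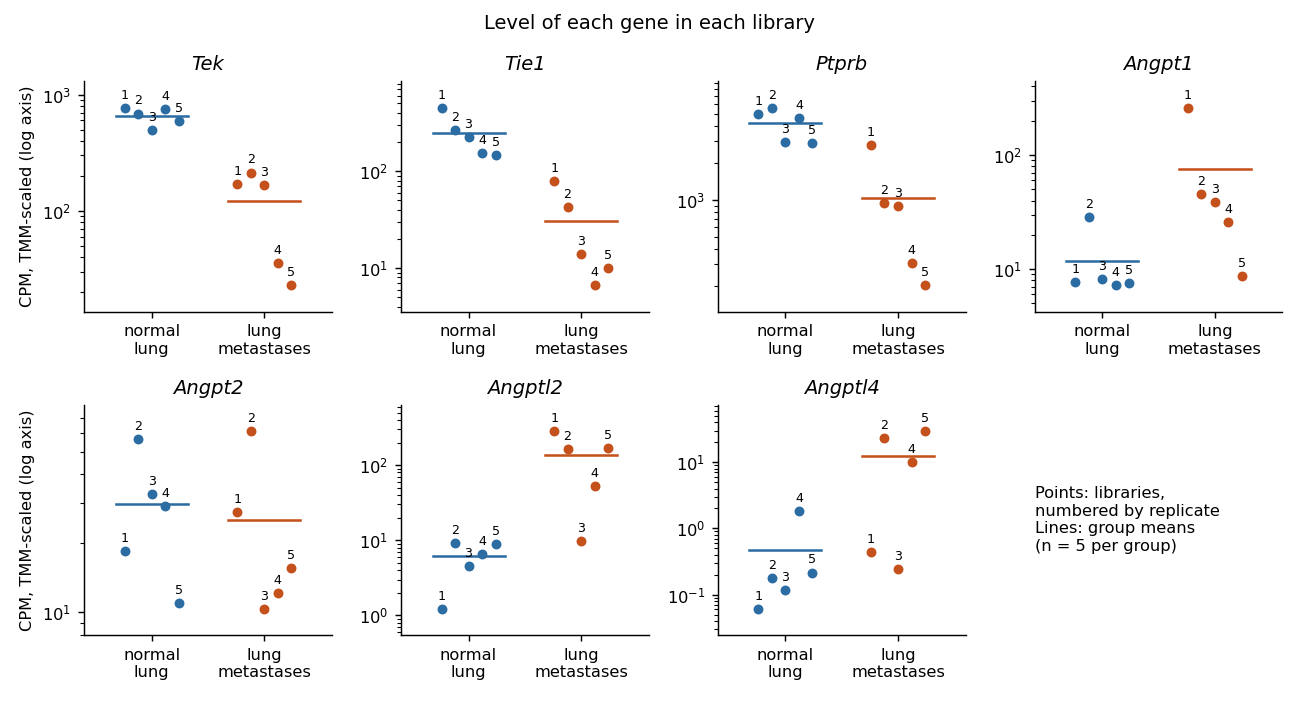
Each point is the level of 1 gene in 1 library, as TMM-scaled CPM on a log axis, with the 5 normal lung and 5 metastasis libraries side by side for each of the 7 genes; bars mark the group means. The ranges are apart for Tek, Tie1, Ptprb and Angptl2 and overlap for Angpt1, Angpt2 and Angptl4.

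Levels of different genes were compared per length, in the authors' FPKM. In normal lung the phosphatase Ptprb stood highest at 332 ± 89.4 FPKM (SD, n = 5), then Tek at 132 ± 21.1 and Tie1 at 97.3 ± 29.9. Far below came Angpt2 at 7.63 ± 4.83, Angptl2 at 2.76 ± 1.48, Angpt1 at 2.09 ± 1.48 and Angptl4 at 0.649 ± 1.10 FPKM. The ranges of Tek and Tie1 overlapped, with Tek higher in 3 of 5 libraries, as did those of Angpt2 and Angptl2. Of neighbours in this order, Angptl2 and Angpt1 did not differ beyond the larger SD, nor did Angpt1 and Angptl4. In metastases the order was Ptprb at 73.5 ± 79.6, Angptl2 at 56.5 ± 51.6, Tek at 24.5 ± 17.4, Angpt1 at 13.2 ± 18.4, Tie1 at 10.9 ± 9.61, Angptl4 at 10.6 ± 11.3 and Angpt2 at 5.45 ± 5.12 FPKM. There no neighbours in the order differed beyond the larger SD, so the steep order of the normal lung, with 3 endothelial receptor and phosphatase transcripts above all ligands, was not seen among the metastasis means.

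Tek lies on chromosome 4, bases 94739289 to 94874976 of the plus strand (GRCm38), and Tie1 on the same chromosome at 118471191 to 118490061 of the minus strand. Tie1 and Tek fell with the endothelial markers, and sequence just before their starts is shown because ETS factors, among them the endothelial ERG, are known to act on both genes. The letters come from RefSeq's promoter table (GRCm38.p6), which matched 3 of the 7 genes. Capitals mark GGAA, the ETS core, or TTCC, its reverse complement, so both strands are marked. For Tek the 250 bases before the RefSeq start are shown (chr4:94739039-94739288, plus strand), and for Tie1 only the 38 bases upstream of every annotated exon (chr4:118490062-118490099, minus strand).
Tek: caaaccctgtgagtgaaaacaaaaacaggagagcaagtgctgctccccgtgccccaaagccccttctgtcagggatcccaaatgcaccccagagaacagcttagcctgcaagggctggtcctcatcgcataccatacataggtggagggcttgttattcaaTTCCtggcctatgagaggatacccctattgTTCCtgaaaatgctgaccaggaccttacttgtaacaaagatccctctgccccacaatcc
Tie1: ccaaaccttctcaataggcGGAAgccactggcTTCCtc
Each printed stretch holds 2 matches. In the full 250-base window Tie1 has 7 matches, 1 of them the longer CGGAAG. Of 32851 promoter windows of 250 bases, 93.4% hold GGAA on either strand, with a median of 3 matches, and 13.6% hold CGGAAG. The letters TGTTTAC (forkhead), GATAA (GATA) and ACGTG (hypoxia response), searched on both strands, were in neither window, and 3.17%, 22.6% and 16.6% of all promoter windows hold them. A match describes letters and does not show binding.

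Tek measured 771, 687, 497, 748 and 591 CPM in normal libraries 1 to 5 and 172, 214, 167, 35.7 and 23.0 CPM in metastasis libraries 1 to 5. Every metastasis library was below every normal one, and libraries 4 and 5 were far below the other 3. The mean went from 659 ± 114 to 122 ± 86.8 CPM (SD, n = 5), a 5.39-fold lower level (log2 fold change -2.43 ± 0.50, SE; edgeR adjusted p = 0.00129). Within libraries 1 and 2 alone the fold change was -1.90 (edgeR adjusted p = 0.0637).

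Tie1, the receptor partner, measured 452, 263, 225, 153 and 148 CPM in normal lung and 79.0, 42.7, 14.0, 6.68 and 10.0 CPM in metastases. Again no metastasis library reached the lowest normal one. The mean went from 248 ± 124 to 30.5 ± 30.6 CPM (SD, n = 5), an 8.14-fold lower level (log2 fold change -3.02 ± 0.62, SE; edgeR adjusted p = 0.00125). The ratio of Tie1 to Tek within a library, which does not depend on scaling between libraries, differed by -0.61 on the log2 scale between the groups (exact permutation test, two-sided, p = 0.254, adjusted over 13 ratios 0.367).

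Ptprb (chromosome 10, 116275523 to 116389535, plus strand) encodes VE-PTP, which holds TIE2 and VE-cadherin signalling in check. It measured 4997, 5638, 2945, 4650 and 2926 CPM in normal lung and 2795, 947, 893, 305 and 203 CPM in metastases. Metastasis library 1 came close to the lowest normal library, and the other 4 were well below. The mean went from 4231 ± 1234 to 1029 ± 1043 CPM (SD, n = 5), a 4.11-fold lower level (log2 fold change -2.04 ± 0.51, SE; edgeR adjusted p = 0.00592). Within libraries 1 and 2 alone it was -1.49 (edgeR adjusted p = 0.140). The log2 ratio of Ptprb to Tek within a library differed by 0.32 between the groups (exact permutation test, p = 0.413, adjusted 0.488).

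These 3 genes were then set against the general endothelial level. As a share of its normal mean, Tek was at 26.0%, 32.4%, 25.4%, 5.42% and 3.49% in metastasis libraries 1 to 5. Tie1 was at 31.8%, 17.2%, 5.66%, 2.69% and 4.04%, and Ptprb at 66.0%, 22.4%, 21.1%, 7.21% and 4.80%. Libraries 4 and 5 were the lowest for all 3 genes, as for the median of the 16 pan-endothelial markers. Relative to the mean log2 count of those markers in the same library, Tek differed between the groups by -0.32 (exact permutation test, two-sided, p = 0.413, adjusted over 13 ratios 0.488) and Ptprb by -0.01 (exact p = 0.976, adjusted 0.984). For Tie1 the difference was -0.93 (exact p = 0.0556, adjusted 0.0903), and 3 of 5 metastasis libraries were below the lowest normal ratio. Without metastasis library 1 it was -1.18 with an adjusted exact p of 0.0344. A difference from the endothelial markers was thus not shown for Tek, Ptprb or Tie1. The ratio of Tie1 passed only when metastasis library 1 was left out. When edgeR's library sizes were scaled to the 16 markers, the log2 fold changes were -0.21 for Tek (edgeR adjusted p = 0.740), -0.76 for Tie1 (0.345) and 0.09 for Ptprb (0.872). None of the 3 passed the test, and the sign of Ptprb turned. This scaling raised the median of all genes tested by 2.69. Relative to that new median Tek was at -2.96, Tie1 at -3.51 and Ptprb at -2.66.

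**Figure D2:**
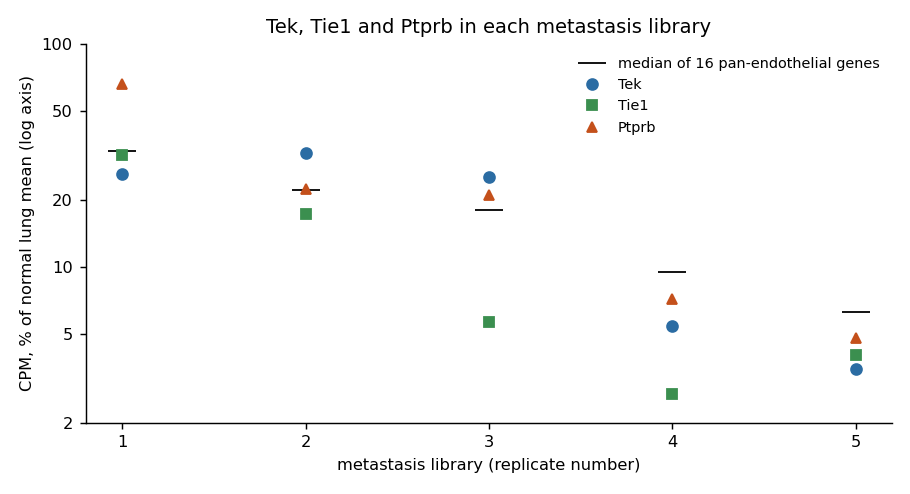
Points give Tek, Tie1 and Ptprb in each of the 5 metastasis libraries as percent of that gene's normal lung mean CPM on a log axis, and black bars the median of 16 pan-endothelial genes. Tek and Ptprb lie on both sides of the bars, Tie1 lies below all 5, and libraries 4 and 5 are the lowest throughout.

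**Figure D3:**
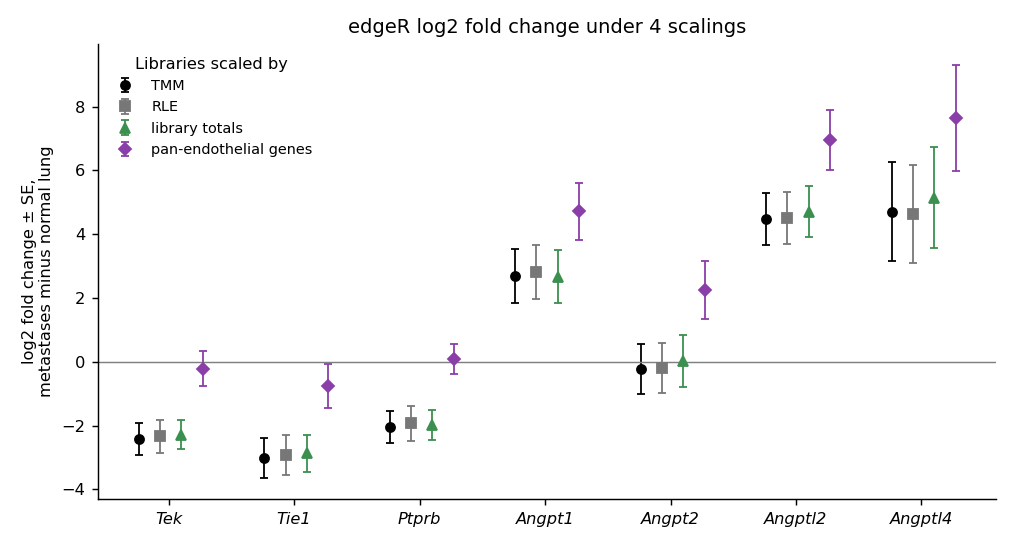
Points are edgeR log2 fold changes, metastases minus normal lung, with SE bars, for the 7 genes with library sizes scaled by TMM, RLE, library totals or 16 pan-endothelial genes. The first 3 scalings give the same calls, and under pan-endothelial scaling Tek, Tie1 and Ptprb lie near 0 while the ligand genes lie higher.

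Angpt1 lies on chromosome 15, 42424723 to 42676977 of the minus strand, and encodes the activating ligand of TIE2. It measured 7.66, 28.5, 8.24, 7.25 and 7.51 CPM in normal lung and 261, 45.8, 39.1, 25.8 and 8.64 CPM in metastases. Metastasis library 1 stood far above all others, 3 of 5 metastasis libraries exceeded the highest normal one, and the groups overlapped. The mean went from 11.8 ± 9.31 to 76.0 ± 104 CPM (SD, n = 5), a 6.43-fold higher level (log2 fold change 2.68 ± 0.84, SE; edgeR adjusted p = 0.0252). Without metastasis library 1 the log2 fold change was 1.31 (edgeR adjusted p = 0.308). Leaving out normal library 1, 3, 4 or 5 also ended the call, with edgeR adjusted p between 0.0575 and 0.0591. The call was likewise not made within libraries 1 and 2 (3.10, edgeR adjusted p = 0.0739) or libraries 3 to 5 (1.66, 0.304), nor with limma on the authors' log2 FPKM (1.52, 0.137). Relative to the pan-endothelial markers of the same library, Angpt1 was higher in all 5 metastasis libraries than in any normal one, by 4.59 on the log2 scale (exact permutation test, p = 0.00794, the smallest these groups can give, adjusted 0.0344). Without any 1 normal library the adjusted exact p was 0.0516, although all metastasis ratios stayed above the normal ones. An exon of Angpt1 overlaps the antisense gene Gm17473, which has no line in the count files. With the strand setting of the counting unknown here, reads of the pair cannot be told apart.

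Angpt1 was set beside markers of the cells known to carry its RNA. Among 8100 genes of at least 10 CPM on average, the profile of Ppbp, which encodes a platelet chemokine, was the most like that of Angpt1 over the 10 libraries. Likeness was the mean absolute difference of centred log2 CPM, 0.39 for Ppbp against a median of 1.70 over genes. Next came Slc6a4, the serotonin transporter that platelets carry, at 0.47, and Mkrn1 at 0.49. Ppbp itself measured 311, 810, 170, 272 and 206 CPM in normal lung and 11948, 2300, 1360, 850 and 660 CPM in metastases. Both genes were highest in library 2 of the normal lungs and in library 1 of the metastases. Angpt1 as a percentage of Ppbp, a ratio chosen after the values were seen, was 2.46%, 3.52%, 4.84%, 2.66% and 3.64% in normal lung and 2.18%, 1.99%, 2.88%, 3.03% and 1.31% in metastases. Ppbp was picked for its likeness to Angpt1 in these same libraries, so a narrow range of this ratio follows from the choice. Among the platelet markers Ppbp, Pf4 and Gp1ba rose. Without metastasis library 1 the call of Gp1ba was lost (1.50, edgeR adjusted p = 0.135). The pericyte and smooth muscle list had 6 of 14 members tested, of which 0 rose and Rgs5 fell. Its 14 members summed to 209, 229, 80.9, 76.9 and 57.4 CPM in metastasis libraries 1 to 5, and the 9 platelet markers to 13256, 3206, 1771, 1065 and 794 CPM. Most of the former sum was Mcam, at 182, 127, 68.1, 48.1 and 34.5 CPM, so it says little of the other members. The median log2 fold change of the 6 tested members was 0.26. Pdgfrb, a pericyte marker, measured 0.153, 0.0478, 9.95, 3.10 and 0.216 CPM in normal lung and 1.93, 21.4, 8.34, 19.2 and 14.6 CPM in metastases. Within libraries 3 to 5 Gp1ba and Pf4 did not pass (edgeR adjusted p = 0.0676 and 0.0532), nor did Pf4 within libraries 1 and 2 (0.159). Rgs5 passed in neither subset (0.192 and 0.0830). The part of platelet or mural cell RNA in the Angpt1 level was not tested.

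**Figure D4:**
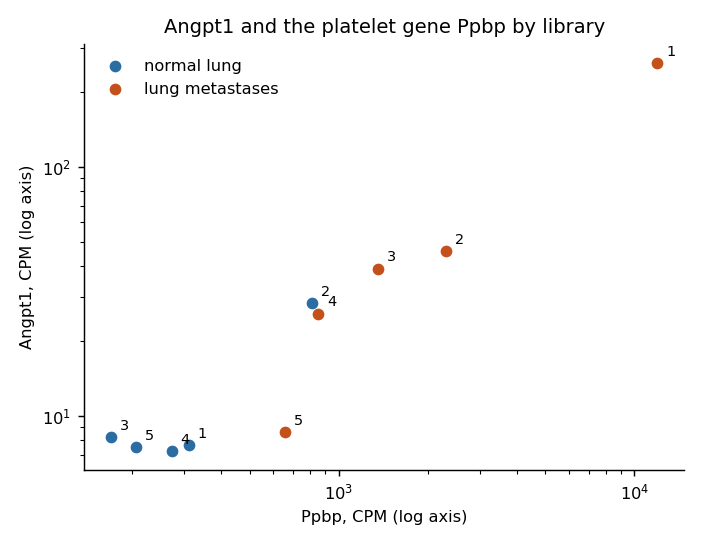
Each point is 1 library, with Ppbp CPM on the x axis and Angpt1 CPM on the y axis, both log scaled; colours mark normal lung and metastases. Metastasis library 1 is at the top of both axes, and the 4 libraries with the least Ppbp, all from normal lung, lie between 7.25 and 8.24 CPM of Angpt1.

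Angpt2 (chromosome 8, 18690263 to 18741562, minus strand), the endothelial ligand of TIE2, measured 18.5, 56.5, 32.7, 28.9 and 11.0 CPM in normal lung and 27.2, 61.2, 10.4, 12.1 and 15.7 CPM in metastases. The groups overlapped almost fully, and library 2 was the highest in both. The means were 29.5 ± 17.3 and 25.3 ± 21.1 CPM (SD, n = 5), with a log2 fold change of -0.22 ± 0.78 (SE; edgeR adjusted p = 0.883) and an approximate 95% interval of -1.75 to 1.31. Changes of over 2-fold in either direction lie inside that interval, so no change was detected rather than shown to be absent. Relative to the endothelial markers of the same library, Angpt2 was higher in metastases by 2.23 on the log2 scale (exact permutation test, p = 0.0159, adjusted 0.0413), in 4 of 5 libraries above the normal range. That call was lost without any 1 normal library or metastasis library 2, 4 or 5 (adjusted exact p up to 0.0774). Scaled to these markers in edgeR, the fold change was 2.24 (edgeR adjusted p = 0.0360), which is -0.51 relative to the median of all genes under that scaling. Angpt2 lies inside Mcph1, a gene of the other strand, and no exons overlap. Mcph1 went from 35.3 ± 25.7 to 146 ± 123 CPM (log2 fold change 2.05 ± 0.70, SE; edgeR adjusted p = 0.0385), and was at -0.11 within libraries 1 and 2. The call of Mcph1 was lost without normal library 2, 3, 4 or 5 or metastasis library 4 or 5 (edgeR adjusted p = 0.0537 to 0.164). Its part in the counts of Angpt2 was not tested.

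The balance of the ligands was read as the log2 ratio of Angpt2 to Angpt1 counts within a library. It was 1.27, 0.99, 1.99, 1.99 and 0.55 in normal lung and -3.26, 0.42, -1.91, -1.09 and 0.86 in metastases. Angpt2 counts exceeded those of Angpt1 in all 5 normal libraries and in 2 of 5 metastasis libraries, and 4 of 5 metastasis ratios were below the normal range. The difference was -2.35 (exact permutation test, two-sided, p = 0.0159, adjusted over 13 ratios 0.0413). Against the receptor, Angpt1 to Tek was higher in metastases by 4.91 (exact p = 0.00794, adjusted 0.0344), with all 5 libraries above the normal range. Angpt2 to Tek was higher by 2.55 (exact p = 0.0238, adjusted 0.0442), with 4 of 5 above it. Of its 2 terms, Angpt2 had a log2 fold change of -0.22 and Tek one of -2.43, so this ratio mainly reflects the lower Tek. Scaling to the endothelial markers raised the median of all genes by 2.69. A gene with no change of its own thus also gives a higher ratio to an endothelial gene such as Tek. With 1 library left out, the call of Angpt2 to Angpt1 was lost without any normal library or metastasis library 2 or 4 (adjusted exact p up to 0.103). Angpt2 to Tek was lost without any normal library or metastasis library 2, 4 or 5 (up to 0.0825), and Angpt1 to Tek without any normal library (0.0516). In the latter runs Angpt1 to Tek still differed by 4.74 to 5.27, with all metastasis ratios above the normal ones. An adjusted p also depends on the other ratios adjusted with it. Without metastasis libraries 4 and 5, 3 libraries remained against 5, and the adjusted exact p was 0.0580 for Angpt2 to Angpt1 and for Angpt1 to Tek, and 0.133 for Angpt2 to Tek. The differences were then -2.94, 4.79 and 1.85.

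**Figure D5:**
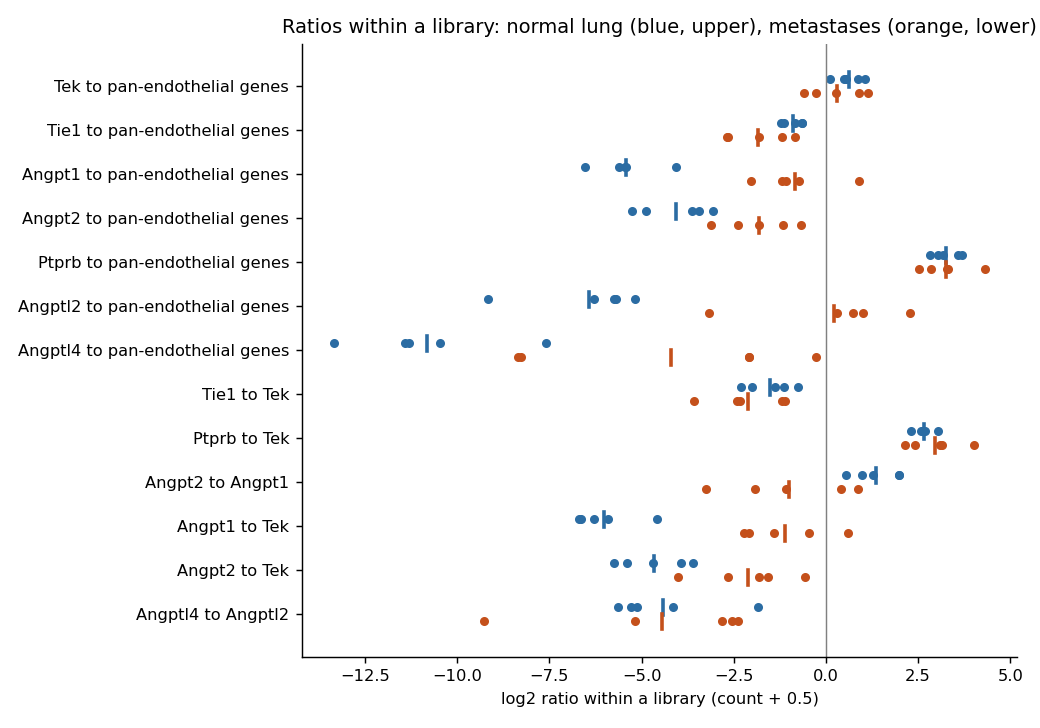
Each row is a log2 ratio of 2 genes, or of a gene to the mean of 16 pan-endothelial genes, within a library; points are the 5 normal and 5 metastasis libraries, and vertical bars the group means. The ratios of Tek and Ptprb to the endothelial genes overlap between groups, and those of Angpt1 and Angptl2 do not.

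Angptl2 (chromosome 2, 33216069 to 33247717, plus strand) encodes a secreted protein that acts through integrins and immune receptors and is made by stromal cells and macrophages among others. It had the smallest adjusted p of the 7 genes. The 250 bases before its RefSeq start (chr2:33215711-33215960, plus strand) are shown beside those of the receptors because it moved in the other direction, again with GGAA or TTCC in capitals.
Angptl2: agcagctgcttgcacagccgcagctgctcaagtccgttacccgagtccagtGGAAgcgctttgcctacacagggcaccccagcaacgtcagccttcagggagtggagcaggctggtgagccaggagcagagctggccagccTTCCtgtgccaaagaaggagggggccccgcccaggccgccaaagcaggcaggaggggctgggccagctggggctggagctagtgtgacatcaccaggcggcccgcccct
It holds 2 matches, the same number as Tek, and none of the 4 longer motifs searched. Angptl2 measured 1.22, 9.18, 4.52, 6.60 and 9.02 CPM in normal lung and 282, 163, 9.87, 52.4 and 171 CPM in metastases. The groups did not overlap, but metastasis library 3 was only just above the highest normal library. The mean went from 6.11 ± 3.34 to 136 ± 107 CPM (SD, n = 5), a 22.2-fold higher level (log2 fold change 4.47 ± 0.81, SE; edgeR adjusted p = 0.000349). Leaving out any 1 library kept the call, with log2 fold changes from 3.99 to 4.74. Relative to the pan-endothelial markers of the same library, Angptl2 was higher in all 5 metastasis libraries than in any normal one, by 6.65 on the log2 scale (exact permutation test, p = 0.00794, adjusted 0.0344), and the adjusted exact p was 0.0580 without metastasis libraries 4 and 5 and 0.0516 to 0.0688 without any 1 normal library. Angptl2 lies inside Ralgps1, on the other strand and with no shared exon. Ralgps1 measured 27.1 ± 22.8 and 11.4 ± 9.77 CPM and did not pass the test (-1.25 ± 0.96, edgeR adjusted p = 0.409).

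Markers of fibroblasts and macrophages differed between the groups too. Of 12 fibroblast markers 7 were tested and 6 rose, with a median log2 fold change of 4.57 over the 7. Of 12 macrophage and monocyte markers 8 were tested and 5 rose, with a median of 4.34. Over all genes tested 12.0% rose. Fibroblast markers summed to 858, 1038, 670, 522 and 580 CPM in metastasis libraries 1 to 5 and the macrophage markers to 1014, 1874, 1600, 1097 and 935 CPM. Their part in the Angptl2 level was not tested.

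Angptl4 (chromosome 17, 33773750 to 33781830, minus strand) encodes the inhibitor of lipoprotein lipase that fasting, PPAR and hypoxia signals are known to induce. It was near the limit of counting in normal lung, with 4, 15, 5, 70 and 8 counts, and had 13, 1506, 5, 343 and 827 counts in metastases. These are 0.0612, 0.179, 0.118, 1.83 and 0.216 CPM against 0.440, 23.0, 0.248, 9.96 and 29.2 CPM. Metastasis libraries 2, 4 and 5 were high, and libraries 1 and 3 lay inside the normal range. The exact 95% interval for the lowest library was 0.0167 to 0.157 CPM, for counting error only. The other 6 genes had at least 80 counts in every library, and the half-width of their intervals was at most 22.6% of the level. All lines of a count file summed to 148 to 258 M, above the depth the labels state, so whether reads, fragments or alignments were counted is not known, and the intervals hold only for independent counts. The mean went from 0.480 ± 0.755 to 12.6 ± 13.1 CPM (SD, n = 5), a 26.2-fold higher level (log2 fold change 4.71 ± 1.55, SE; edgeR adjusted p = 0.0325). The call was lost without metastasis library 2 (edgeR adjusted p = 0.0645) or 5 (0.0931), and without normal library 1, 2, 3 or 5 (0.0690 to 0.0726). It was also not made within libraries 1 and 2 (6.59, 0.168) or 3 to 5 (4.17, 0.139), nor without metastasis libraries 4 and 5 (3.98, 0.142). Its ratio to the pan-endothelial markers was higher in metastases by 6.62 (exact permutation test, p = 0.0238, adjusted 0.0442), with 3 of 5 libraries above the normal range, and its ratio to Angptl2 differed by -0.03 (exact p = 0.984). The former call was lost without any 1 normal library or metastasis library 2, 4 or 5 (adjusted exact p up to 0.103). Angptl4 reached the filter level of 0.242 CPM in 5 of 10 libraries, 1 normal and 4 metastasis. It therefore entered the test through the group in which it was higher.

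The profiles most like those of the other members over the 10 libraries, by the same measure as for Angpt1, were as follows. Tek was nearest to Trib2 (0.18), Kalrn (0.29) and Ptprk (0.32), and Tie1 to Slc50a1 (0.26), Notch4 (0.32) and Hpcal1 (0.35). Ptprb was nearest to Slc43a3 (0.23), Meis1 (0.29) and Pecam1 (0.31), the last being the gene of the sort. Tek and Ptprb differed from each other by 0.41, Tie1 from Ptprb by 0.61 and Tie1 from Tek by 0.70. Angpt2 was nearest to Lasp1 (0.36), Sap18 (0.38) and Chd3 (0.38). The genes nearest to Angptl2, Smad3 (0.66), Nol6 (0.66) and Polq (0.74), and to Angptl4, Ctnnal1 (0.68), Marco (0.81) and Mybl2 (0.84), were less near than those of the receptors. All 10 libraries share the group difference, so genes that changed by a like amount come out as near.

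Among other ligands of the family, 1 of 8 listed genes, Angptl8, had enough counts to be tested. It measured 21.1 ± 20.9 and 1.78 ± 2.86 CPM (-3.56 ± 1.30, edgeR adjusted p = 0.0548). Svep1, a TIE1-binding matrix protein, and Lect2, a TIE1 ligand, were at 0 in all 10 libraries. Among 26 Tie adaptor and signalling genes, 24 had counts for a test. Of these 1 rose and 3 fell, where 12.0% of all genes tested rose and 8.22% fell, and nothing is read from these counts. The median log2 fold change was -0.19. Pak1, a kinase of cell migration recruited below TIE2, rose from 0.872 ± 0.207 to 77.2 ± 41.9 CPM (6.47 ± 0.82, edgeR adjusted p = 5.73e-06). The genes that fell were the adaptor Grb14 (-2.15 ± 0.71, 0.0333), Foxo1 (-1.80 ± 0.58, 0.0282), the transcription factor restrained by TIE2 and AKT, and Gata2 (-2.40 ± 0.51, 0.00158). The call of Grb14 was lost without normal library 3, 4 or 5 or metastasis library 4 or 5 (up to 0.0735), and that of Foxo1 without normal library 1 or 5 (up to 0.0521). Iqgap1, the most abundant gene of the list, measured 430 ± 73.2 and 650 ± 131 CPM and did not pass (0.60 ± 0.33, 0.226). Under pan-endothelial scaling 17 of these 24 genes rose and 0 fell, where 59.8% of all genes tested rose and 0.169% fell, since that scaling raises the median of all genes by 2.69.

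A list of 5 proteases was drawn up around the shedding of Tie receptors, a role not established for every member. All were tested and Mmp14, a membrane metalloprotease, rose from 27.0 ± 18.5 to 126 ± 85.5 CPM (2.22 ± 0.63, edgeR adjusted p = 0.0135). Without metastasis library 2 its adjusted p was 0.0693. Adamts1, the most abundant, was at 274 ± 194 and 274 ± 93.8 CPM. The median of the 5 was 0.02, and 12.0% of all genes tested rose.

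Among 11 integrin and immune receptor genes, 3 of the 10 tested rose and 2 fell, with a median of 1.82. Of all genes tested 12.0% rose and 8.22% fell. Itga5, the fibronectin receptor chain, rose (1.87 ± 0.55, edgeR adjusted p = 0.0177), as did Itgav (1.78 ± 0.45, 0.00592) and Lilrb4a, an inhibitory receptor of myeloid cells (3.09 ± 0.81, 0.00853). The laminin and collagen receptor chains Itga1 (-1.85 ± 0.39, 0.00154) and Itga3 (-1.73 ± 0.54, 0.0257) fell. The call of Itga5 was lost without metastasis library 2 (0.0624) or normal library 5 (0.0509), and that of Itga3 without normal library 1 or 2 or metastasis library 3, 4 or 5 (up to 0.0993).

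Around Angptl4, 1 of the 16 tested genes of the lipoprotein lipase axis and its regulators (18 listed) rose and 5 fell, with a median of -0.61. The shares over all genes tested were 12.0% and 8.22%. Hif1a, an oxygen-regulated transcription factor, rose from 86.9 ± 37.6 to 456 ± 41.6 CPM (2.39 ± 0.40, edgeR adjusted p = 0.000176). Its relative Epas1, abundant in lung endothelium, fell from 9721 ± 1239 to 1852 ± 1356 CPM (-2.39 ± 0.44, 0.000432). Gpihbp1, which carries lipoprotein lipase on capillary endothelium, fell (-2.84 ± 0.81, 0.0137), as did the fatty acid receptor Cd36 (-2.27 ± 0.46, 0.00109), Cpt1a of fatty acid oxidation (-1.49 ± 0.41, 0.0112) and the protease Pcsk5 (-2.87 ± 0.96, 0.0366). The call of Pcsk5 was lost without normal library 3 or 4 or metastasis library 2, 3, 4 or 5 (up to 0.0830). Scaled to the pan-endothelial markers, 7 of the 16 rose and 0 fell, where 59.8% and 0.169% of all genes tested did. Under that scaling Epas1 was at -0.12, Gpihbp1 at -0.66, Cd36 at -0.04, Cpt1a at 1.03 and Pcsk5 at -1.07, and none of these 5 passed.

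Around Ptprb, all 14 listed substrates, relatives and junction partners entered the test, and 1 rose and 7 fell, with a median of -2.09. In the same fit 12.0% of all genes tested rose and 8.22% fell. Cdh5, or VE-cadherin, fell from 5519 ± 2332 to 1220 ± 790 CPM (-2.18 ± 0.45, edgeR adjusted p = 0.00117). Kdr, the VEGF receptor, fell from 2487 ± 651 to 380 ± 257 CPM (-2.71 ± 0.43, 8.78e-05). Jup, Fgd5, Ptprm, Ptprk and Ptprg were the other 5 that fell. The receptor phosphatase Ptprj rose from 56.9 ± 54.4 to 348 ± 280 CPM (2.61 ± 0.63, 0.00430). Scaled to the pan-endothelial markers, which include Cdh5 and Kdr, 5 of the 14 rose, where 59.8% of all genes tested rose, and their median was 0.34 beside 2.75 over all genes. Without metastasis libraries 4 and 5, in a fit where 9.08% of all genes rose and 4.21% fell, 2 adaptor genes rose and 1 fell, 1 protease rose, 2 integrin or immune receptors rose and 1 fell, 1 lipase-axis gene rose and 3 fell, and 1 gene around Ptprb rose and 7 fell.

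Within libraries 1 and 2 alone, the calls of Pak1, Hif1a, Epas1, Ptprj, Cdh5 and Kdr held. There the edgeR adjusted p was 0.0617 for Gata2, 0.0670 for Lilrb4a, 0.0872 for Itga5, 0.0918 for Cd36, 0.145 for Mmp14, 0.148 for Itga3, 0.166 for Itgav and 0.203 for Itga1. It was 0.255 for Gpihbp1, 0.264 for Cpt1a, 0.468 for Foxo1, 0.714 for Grb14, 0.771 for Pcsk5 and 0.0831 for Ptprk. Within libraries 3 to 5 alone, Itga5 (0.169), Cpt1a (0.0512) and Ptprj (0.0535) did not pass. The log2 fold change of Grb14 was -0.86 in libraries 1 and 2 and -3.71 in libraries 3 to 5, and that of Pcsk5 was -0.997 and -6.07. The difference between these subsets was not tested.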

How the data were processed

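The authors deposited raw counts per gene for each of the 10 libraries, with HTSeq's summary lines, and a table of FPKM (fragments per kilobase of transcript, scaled to depth) for 24460 genes. Per the submitters' processing notes, builds mm10 and GRCm38 were used with DESeq2 1.6.3, TopHat2 2.0.13, HTSeq 0.6.1 and Cufflinks 2.2.1, whose roles and order those notes leave out. No source used here gives the annotation or the strand setting. Per the file headers, each FPKM column belongs to 1 library. Summary lines were kept out of library sizes: reads in no gene took 55.4% to 73.7% of all lines, and genes 14.6% to 34.4%, less in most metastasis libraries.

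Groups came from the sample titles. The counts were compared with edgeR 4.0.16 in R 4.3.3 (filterByExpr defaults, TMM, robust quasi-likelihood F test, two-sided, Benjamini-Hochberg over 11823 genes, threshold 0.05). The fit was also run on simulated counts with changes planted in randomly drawn genes and directions. That run held no joint shift of the endothelial genes, so it does not cover one. Each SE was taken as the size of the log2 fold change divided by the root of the test's F value. Within-library log2 ratios of counts plus 0.5 were compared by exact permutation over libraries, two-sided, adjusted over 13 ratios. Limma 3.58.1 on log2 FPKM (pseudocount 1) and DESeq2 1.42.0 were alternatives. Positions are from GENCODE M21. Same-numbered libraries deviated together weakly at most (correlations of 0.000682 to 0.142). Only libraries 2 and 4 were each other's best match across the groups. The labels do not say whether numbers pair the samples, and they were not treated as pairs in the main fit. The 7 genes, the 6 pathway lists and 11 marker lists were chosen with earlier results of these data known. Beside the 7 genes, the text names, per pathway list, the 2 called genes of largest change in each direction the most abundant gene, the 3 nearest profiles, and Pecam1 and Ptprc. Marker lists, for which the rule allowed their 2 most abundant genes, are given mainly as sums. Tcf21, Fbln1, Cspg4, Pf4, Rgs5, Pdgfrb, Foxo1, Itgav, Cd36, Cpt1a, Jup, Fgd5, Ptprk, Ptprg and the host genes Mcph1 and Ralgps1 were added after their values were seen, as was the ratio of Angpt1 to Ppbp.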

Additional observations from a re-analysis of the deposited data

Results flagged for a closer look

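In 40 groups of 5 libraries (the levels of the members and their ratios in each condition), the gap of the highest or lowest library to the next one was set against the range of the group. It exceeded 0.71 of the range in 5 groups. In independent, normally distributed values such a gap arises in about 1 in 20 groups. Here the CPM were not logged and the groups share genes and libraries, so that rate may not hold. Angpt1 was far apart in normal library 2, at 28.5 CPM with the next at 8.24, and in metastasis library 1, at 261 CPM with the next at 45.8. Ptprb was highest in metastasis library 1, at 2795 CPM with the next at 947. Angptl4 was highest in normal library 4, at 1.83 CPM with the next at 0.216. The log2 ratio of Angptl2 to the pan-endothelial genes was lowest in normal library 1, at -9.17 with the next at -6.29. Metastasis library 1 thus stood apart for 2 of the 7 genes.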

How the results depend on the processing

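Counts limited Angptl4 in normal lung, where 4 to 70 counts gave wide intervals. Scaling by library totals or RLE, which moved the median of all genes by 0.26 and 0.08, changed no call of the 7 genes. Genes that rose numbered 1420 and genes that fell 972, and with 1 library left out 1302 to 1440 and 792 to 1114. The other counts that moved were 7068 and 20 under pan-endothelial scaling, 2380 and 1661 in DESeq2, 869 and 453 at a threshold of 0.01, 487 and 201 in libraries 1 and 2 alone, and 527 that fell without metastasis libraries 4 and 5. With the replicate block 1435 rose and 1180 fell, Angpt1 was at 1.88 (edgeR adjusted p = 0.0927) and Angptl4 at 3.97 (0.0706), and the calls of the other 5 genes did not change. The labels do not say whether the numbers pair the samples, and not every library correlated best with its own number.

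With pan-endothelial scaling, which raises the median of all genes by 2.69, Tek was at -0.21, Tie1 at -0.76, Ptprb at 0.0915, Angpt2 at 2.24, Grb14 at 0.12, Foxo1 at 0.61, Adamts1 at 2.60, Itga1 at 0.59, Itga3 at 0.75, Cpt1a at 1.03, Cdh5 at 0.21 and Pecam1 at 0.37. Scgb1a1, an epithelial marker, was at 0.20 and Mcph1 at -0.11 in libraries 1 and 2 alone. In those libraries Tek was at -1.90 (0.0637), Ptprb at -1.49 (0.140), Angpt1 at 3.10 (0.0739) and Angptl4 at 6.59 (0.168), with fewer samples. In libraries 3 to 5 Angpt1 was at 1.66 (0.304) and Angptl4 at 4.17 (0.139). At 0.01 Angpt1 (2.68) and Angptl4 (4.71) did not pass. In limma on the log2(FPKM + 1) scale, Angpt1 was at 1.52 (0.137), at 1.84 with a pseudocount of 0.1 (0.150) and at 1.52 without a filter (0.234) and Angptl4 at 2.12 without a filter (0.178). Angptl4 was not in the fits filtered on FPKM or on 10 CPM. Without metastasis libraries 4 and 5 Angptl4 was at 3.98 (0.142). For the ratios the exact adjusted p was then 0.0580 for Angpt1 to pan-endothelial genes (4.95), Angptl2 to them (5.94), Angpt2 to Angpt1 (-2.94) and Angpt1 to Tek (4.79), and 0.133 for Angpt2 to pan-endothelial genes (2.01), Angptl4 to them (4.59) and Angpt2 to Tek (1.85). Leaving out metastasis libraries 4 and 5 raises the smallest p the exact test can give.

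With 1 library left out, log2 fold changes were -2.72 to -2.17 for Tek, -3.78 to -2.72 for Tie1, -2.87 to -1.78 for Ptprb, 1.31 to 3.29 for Angpt1, -0.85 to 0.12 for Angpt2, 3.99 to 4.74 for Angptl2 and 4.07 to 6.39 for Angptl4. The ratios to pan-endothelial genes were -1.18 to -0.72 for Tie1, 4.16 to 4.93 for Angpt1, 1.93 to 2.55 for Angpt2, 5.96 to 7.50 for Angptl2 and 5.63 to 7.65 for Angptl4. Angpt2 to Angpt1 was -2.82 to -1.79, Angpt1 to Tek 4.48 to 5.27 and Angpt2 to Tek 2.16 to 3.03. Where no construction is named, the cause was not tested.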
